A study of Mus musculus with 12 samples.

Results

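Replication fork direction was compared between naive embryonic stem cells and epiblast-like cells (EpiLCs) of the KMT2C KO control line of mouse, the comparison that follows exit from naive pluripotency without loss of KMT2D. The samples were taken by their labels: 2 naive and 2 formative OK-seq samples of the control KO line, 4 of the 12 samples in the series. The cells were KMT2C KO/KMT2D cKO stem cells of a mixed strain background in which KMT2D had not been deleted, so both states lacked KMT2C and neither was wild type. Naive cells were kept with LIF and 2i, the inhibitors PD0325901 and CHIR99021, and EpiLCs were the formative cells obtained after LIF and 2i were withdrawn. The other 8 samples are the same states in a double knockout line of KMT2C and KMT2D (dKO) and in a catalytic-dead line (dCD). The dKO cells came from the control line by induced deletion of KMT2D. The dCD cells were derived separately and from another strain background, so they differ from the control in more than KMT2C and KMT2D. Each line is 1 culture line, and OK-seq reads are genomic DNA, so the cell states rest on the labels and could not be checked with marker genes.

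OK-seq sequences Okazaki fragments, the short pieces in which the lagging strand is made. A fork that moves from left to right along the chromosome leaves Okazaki fragments on one strand, called Crick here, and a fork that moves from right to left leaves them on the other, called Watson. The share of Crick reads in a window therefore gives the share of forks that move rightward. Where forks start, the Crick share climbs from left to right, and where converging forks meet it declines. In mouse and human cells initiation is concentrated in broad zones, often beside active genes, and termination is spread over the stretches between them.

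In the files the 2 replicates of a state are summed, so there is no error between replicates and no test of the state can be made. Every interval below is a 95% counting interval, from the Wilson method for a share, the Newcombe method for a difference of shares and the combined binomial errors for a difference of steps, and covers counting error only, since PCR copies of a fragment cannot be told apart in these counts. The naive library held 4409068 reads and the EpiLC library 11407678, with 49.93% and 49.99% of them on the Crick strand. In fixed windows of 500 kb the median was 873 reads in naive cells and 2282 in EpiLCs. The fork direction of a window is its Crick percentage, and its strand step is the Crick percentage of its right side minus that of its left side, positive for net initiation and negative for net termination. "Rose" and "fell" are used only for a difference whose counting interval does not hold 0.

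Fork direction was largely kept on exit from the naive state, with a narrower spread in EpiLCs. Over 4989 windows of 500 kb with at least 200 reads in each library, of 5278 in all, the Pearson r between the states was 0.893, and 0.927 with counting noise removed. The SD of Crick percentage over windows, with counting noise removed, was 8.005 points in naive cells and 6.403 points in EpiLCs, a ratio of 0.7998 ± 0.006 (95% counting interval). On each of 20 chromosomes the EpiLC value was the lower one. Over 49309 windows of 50 kb the SD was 12.6 points in naive cells and 9.73 in EpiLCs, a ratio of 0.771, and r was 0.779, or 0.900 with counting noise removed. Over 496 windows of 5 Mb the SD was 1.84 points in naive cells and 1.48 in EpiLCs, a ratio of 0.804, and r was 0.898. The windows share their libraries and are not replicates, so these values describe the 2 libraries.

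The libraries also differed in how strongly strand followed base content. EdU, the label of the fragments, is a thymidine analog, and reads leaned to the Crick strand where the reference strand holds more T than A. In 270771 bins of 1 kb where A exceeded T by over 10% of the bases, 21.3% of naive reads and 30.0% of EpiLC reads were Crick. In 278338 bins where T exceeded A by at least 10%, 78.5% of naive reads and 69.9% of EpiLC reads were Crick. The lean was thus stronger in the naive library, with a fitted slope of Crick share on T minus A content of 1.76 against 1.21 in EpiLCs. The order was the same in dKO, with 1.701 in naive cells and 1.37 in EpiLCs, and in dCD, with 1.82 and 1.42. Whether it belongs to the libraries or to the cell states cannot be told apart. When the part of the strand bias that follows T minus A content was subtracted in each library, called the T minus A correction here, the SD at 500 kb was 5.56 points in naive cells and 5.03 in EpiLCs, and the ratio was 0.905 at 500 kb, 0.865 at 50 kb and 0.977 ± 0.061 at 5 Mb. The 5 Mb ratio was then below 1 on 12 of 20 chromosomes, against 19 of 20 with reads as counted. The correlation between the states without counting noise was then 0.892 at 500 kb and 0.866 at 50 kb.

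**Figure D1:**
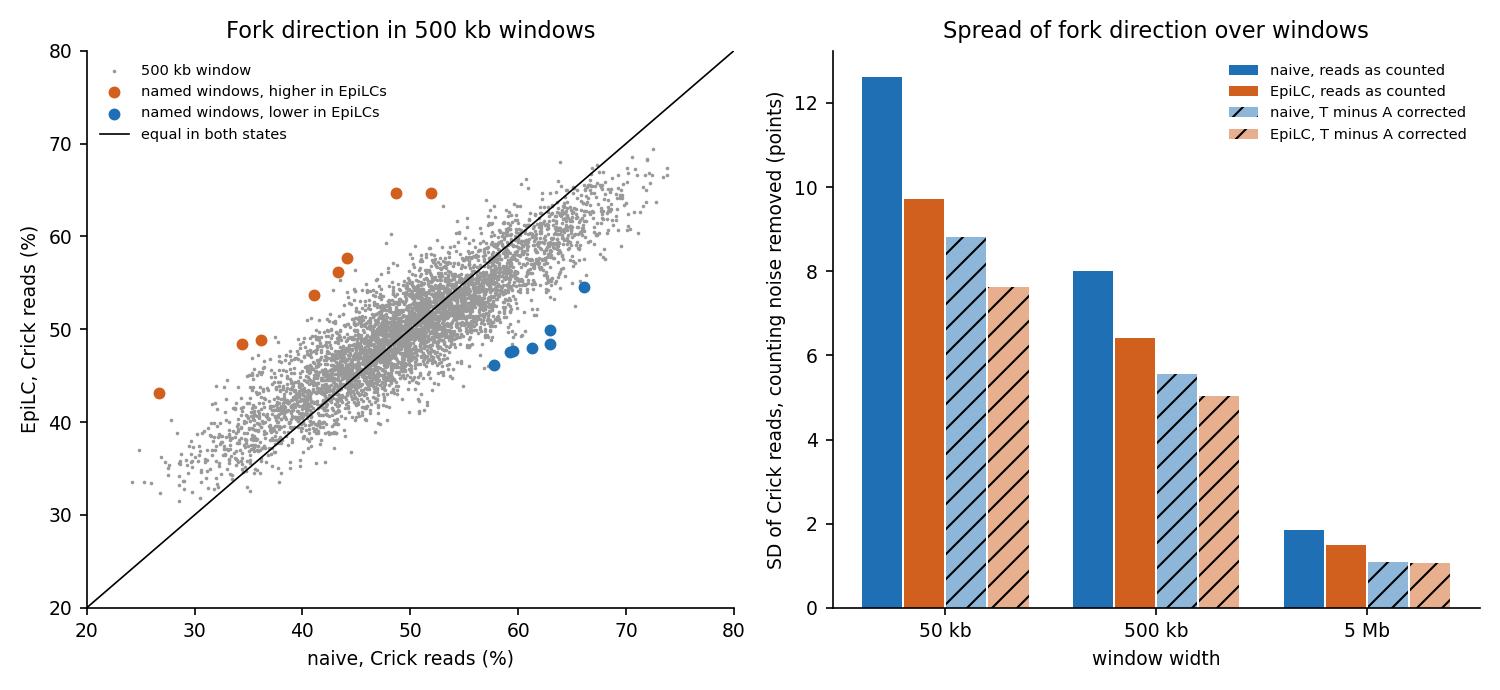
Left, Crick percentage of each 500 kb window in naive cells (x axis) and in EpiLCs (y axis), with 15 windows named for their change of direction in colour and the line of equal values in black. The cloud is flatter than the line, which is the lower spread in EpiLCs. Right, SD of Crick percentage over windows of 3 widths with counting noise removed, for reads as counted and after the T minus A correction.

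Large changes of fork direction were few. At 500 kb, 32 windows had a Crick percentage at least 10 points higher in EpiLCs with an interval without 0, which is 0.641% of the windows, and 28 had one at least 10 points lower, which is 0.561%. The median size of the difference over all 500 kb windows was 2.46 points. The smallest called difference was 10.01 points and the largest uncalled one 9.99 points, so the threshold divides a continuous range. After correction for T minus A the counts were 16 and 13, and 14 and 11 of these were windows called in reads as counted. Thinning EpiLC reads at random to the naive total, which widens the counting spread, gave 50 higher and 38 lower. At 50 kb, 514 windows (1.04%) were higher and 487 (0.988%) lower by at least 20 points, where a window had a median of 87 naive reads and the median counting interval was ± 11.7 points. In corrected reads these were 351 and 303, while thinning EpiLC reads to the naive total raised both counts. The percentage of 5 Mb windows called at 5 points was 0 in either direction. No called 500 kb windows were adjacent with the same sign, with 32 and 28 separate runs. Calls this sparse would seldom be adjacent even if placed at random, so this does not measure how far a change extends.

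Windows named here are the largest called differences that had the same sign in odd-numbered and in even-numbered 1 kb bins and after the T minus A correction, at most 1 per 5 Mb. That sign rule was met by all 32 and all 28 windows called for direction. It was also met by 313 of 315 and 348 of 350 called for a higher or lower strand step. The rule uses the reads that made the call, so it is no separate support. The window of Tg at chr15:66500001-67000000, which encodes thyroglobulin, the precursor of thyroid hormones, had 44.1% Crick reads in naive cells (41.1 to 47.2) and 57.6% in EpiLCs (55.7 to 59.5). The difference was 13.5 points (9.86 to 17.1), and 12.7 after the T minus A correction. The left side of the window had 53.6% in naive cells and 61.9% in EpiLCs and the right side 35.0% and 53.2%, so forks were mostly leftward in its right side only, and in the naive library. The window of Sema3e at chr5:14000001-14500000, a secreted semaphorin of axon and vessel guidance, had 51.9% Crick reads in naive cells (48.5 to 55.4) and 64.6% in EpiLCs (62.8 to 66.4). The window of Adamts20 at chr15:94000001-94500000, a secreted metalloprotease, had 36.2% in naive cells (33.1 to 39.4) and 48.9% in EpiLCs (46.8 to 50.9). An olfactory receptor cluster on chromosome 2 around Olfr1116 had 34.4% in naive cells and 48.4% in EpiLCs. The largest difference lay in the window of Sirpb1b at chr3:15500001-16000000, a signal-regulatory protein gene, with 26.7% in naive cells (22.5 to 31.4) and 43.2% in EpiLCs (40.0 to 46.4). There T was 5.31% of the bases below A, and the difference of 16.4 points was 7.96 after the T minus A correction. Of the other 3 windows named for a rise, that of Gm49398 on chromosome 13 had a difference of 12.6 points, or 9.38 after correction and so under the 10 points of a call, and a pair without a protein-coding gene on chromosomes X and 14 had 15.9 and 12.9 points.

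In the opposite direction, the window of Brinp3 at chr1:146500001-147000000, a gene induced in neural differentiation, had 63.0% Crick reads in naive cells (59.0 to 66.8) and 49.97% in EpiLCs (47.5 to 52.5). A window without a protein-coding gene at chr1:114000001-114500000 had 62.9% in naive cells (59.1 to 66.6) and 48.4% in EpiLCs (46.0 to 50.9), a difference of -14.5 points (-18.9 to -9.95). Averaged over each of these windows, forks mostly moved rightward in the naive library and had no majority direction in the EpiLC library. The window of Unc79 at chr12:103000001-103500000, a subunit of the NALCN sodium leak channel complex, had 59.3% in naive cells (56.2 to 62.2) and 47.5% in EpiLCs (45.7 to 49.4). The window of Pde4b, a cAMP phosphodiesterase, fell from 59.5% to 47.7%, that of Commd10 from 61.3% to 48.0% and that of Lrba, a regulator of vesicle trafficking, from 66.1% to 54.6%. After correction the differences at Pde4b and Lrba were -9.76 and -8.71 points, under the size of a call. A window without a protein-coding gene on chromosome 3 fell from 57.8% to 46.2%. At 50 kb the largest fall, named after its value was seen, was in the window of Spin2c at chrX:153800001-153850000, from 89.7% of 29 reads to 45.9% of 109 reads.

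A full turn of the majority direction was rare. Of 2816 windows of 500 kb with a majority direction in both states, meaning a Crick interval without 50%, 2765 kept it. In 19 windows (0.381% of all windows) forks were mostly rightward in naive cells and mostly leftward in EpiLCs, and in 32 windows (0.641%) the reverse held. In corrected reads both counts were 27, of 2189 windows.

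The differences at called windows were also measured in separate reads. Windows were called in the odd-numbered 1 kb bins and measured in the even-numbered ones, and the reverse. The mean Crick percentage at the 134 selections called higher was 41.0 in naive cells and 48.4 in EpiLCs in the bins not used for the call. At the 97 selections called lower it was 59.6 in naive cells and 52.6 in EpiLCs. Calls from odd-numbered and from even-numbered bins are pooled, so a window called in both can be counted for each. For higher and lower calls alike the EpiLC mean lay nearer to equal strands, as the narrower EpiLC spread would also make it. Over all 4989 windows of 500 kb the slope of EpiLC on naive Crick percentage, without counting noise, was 0.741. How much of these differences the narrower spread makes up was not tested.

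Broad initiation and termination domains were both less marked in EpiLCs. In naive cells 971 windows of 500 kb (19.5%) were domains of net initiation, with a strand step of at least 10 points and an interval without 0, and in EpiLCs 728 (14.6%). Net termination, a step of at most -10 points, was called in 1014 windows in naive cells (20.3%) and 674 in EpiLCs (13.5%). Initiation was shared by 586 windows and termination by 513. In 385 windows initiation was called in naive cells and neither class in EpiLCs, and in 141 the reverse held. In 500 windows termination was called in naive cells alone and in 161 in EpiLCs alone. No window went from initiation to termination, and 1 went from termination to initiation. Once corrected for T minus A, shared initiation was called in 369 windows and initiation in naive cells or EpiLCs alone in 334 and 182, and termination was called in 628 windows in naive cells and 431 in EpiLCs.

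A window called in 1 library is expected to be less extreme in new reads, so domains were chosen in odd-numbered bins and measured in even-numbered bins of the same libraries. The 1024 initiation domains called in naive cells had a mean step of 16.3 points in naive cells and 11.5 in EpiLCs, a difference of -4.84 points (-5.18 to -4.50) that was below 0 on 20 of 20 chromosomes. The 778 called in EpiLCs had 16.7 points in naive cells and 14.7 in EpiLCs. Initiation domains were thus steeper in the naive library even where the EpiLC library had chosen them. After the correction this was not so, with 12.7 points in naive cells and 13.1 in EpiLCs, a difference of 0.40 points (-0.03 to 0.84). Termination had the same order in reads as counted. The 1067 termination domains called in naive cells had a mean step of -13.1 points in naive cells and -9.35 in EpiLCs, and the 719 called in EpiLCs had -13.6 and -12.5. After the correction the termination domains called in naive cells had -10.4 and -7.50 points, but the 487 called in EpiLCs had -10.5 and -11.0, a difference of -0.557 (-1.08 to -0.033). With the roles of the bins exchanged that difference was -0.519 (-1.05 to 0.014), below 0 on 12 of 20 chromosomes, so termination there was not steeper in the naive library.

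Domains chosen as particular to one state differed in the same direction in the separate reads. The 202 windows called as initiation in naive cells and under 5 points in EpiLCs had 9.30 points in naive cells and 1.95 in EpiLCs, a difference of -7.35 (-8.16 to -6.54). The 82 windows chosen the other way had 3.23 points in naive cells and 9.98 in EpiLCs, a difference of 6.75 (5.48 to 8.03). The lost domains outnumbered the gained ones, and either kind retained some slope of the same sign in the other state. These numbers were not compared at equal depth, and the naive library was the shallower. With EpiLC reads thinned to the naive total, all initiation windows called in EpiLCs numbered 771 and all termination windows 735. For termination, 249 windows particular to naive cells had -8.66 points in naive cells and -2.89 in EpiLCs. The 95 particular to EpiLCs had -4.20 and -9.13. In T minus A corrected reads, the steps of the 190 lost initiation windows were 9.12 and 2.32 points and those of the 98 gained ones 3.51 and 9.69.

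**Figure D2:**
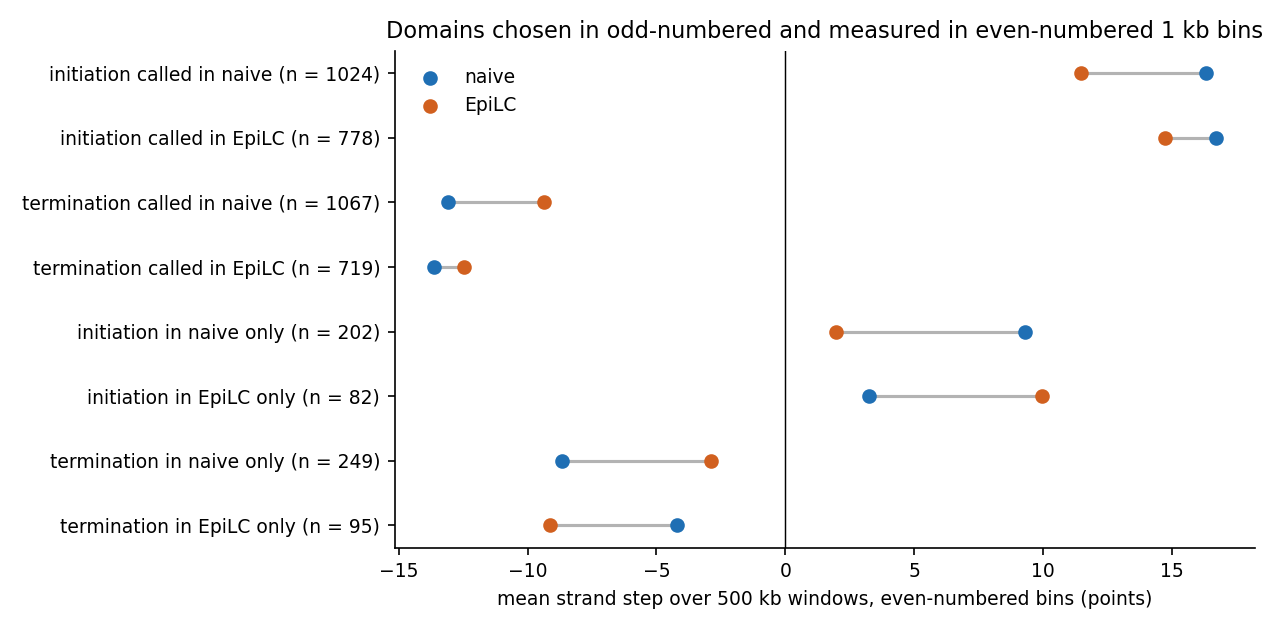
Mean strand step (x axis, percentage points) over the 500 kb windows of each kind of domain, chosen in odd-numbered and measured in even-numbered 1 kb bins, in naive cells (blue) and EpiLCs (orange), with the number of windows at each label. Initiation domains particular to a state have a mean step of 1.95 or 3.23 points in the other state, and termination domains -2.89 or -4.20.

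The strand step was at least 10 points higher in EpiLCs in 315 windows of 500 kb (6.31%) and at least 10 points lower in 350 (7.02%). After correction for T minus A there were 226 and 265, of which 204 and 226 were also called in reads as counted. The largest gain was in the window of Serpina1b at chr12:103500001-104000000, a gene of the alpha-1-antitrypsin cluster and the direct neighbour of the Unc79 window above. Its left and right sides had 61.9% and 36.1% Crick reads in naive cells and 59.2% and 63.6% in EpiLCs, so the step went from -25.8 to 4.38 points, a difference of 30.2 (20.04 to 40.3). The naive termination slope across this window was not seen in the EpiLC library. The window of Piezo2, a mechanosensitive ion channel, had a step of -20.1 points in naive cells and 6.55 in EpiLCs. That of Usp29, in the imprinted Peg3 domain, had -16.1 and 8.46. The other named gains were 28.3 points in the window of Gm4788 on chromosome 1 and 23.4 points in a window without a protein-coding gene on chromosome X.

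Among the losses, the window of Fam111a at chr19:12500001-13000000, which encodes a protease that binds PCNA, had sides of 38.2% and 72.4% Crick reads in naive cells and 51.9% and 62.1% in EpiLCs. Its step of 34.2 points in naive cells was 10.2 in EpiLCs, a difference of -24.0 (-31.3 to -16.7). The window of Bhlhb9 at chrX:135500001-136000000 had 38.7 points in naive cells and 7.94 in EpiLCs, a difference of -30.7 that was -19.2 after the T minus A correction. The window of Stk26, a kinase of the germinal center kinase family, went from 18.7 to -6.57 points and that of Nckap5 from 15.2 to -8.65. A window without a protein-coding gene on chromosome 7 went from 31.4 to 2.84 points. In each of these 5 windows a naive zone of initiation was weaker or missing in the EpiLC library.

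At 5 Mb, 4 windows (0.806%) had a step at least 5 points higher in EpiLCs and 2 (0.403%) one at least 5 points lower. These few are named after their values were seen. The gains were 5.04 points at chr1:30000001-35000000, 5.18 at chr1:105000001-110000000, 5.16 at chr5:60000001-65000000 and 5.24 at chrX:75000001-80000000. In corrected reads they were 3.31, 4.86, 4.23 and 4.81, all under the threshold. The losses were -5.26 points at chr1:20000001-25000000, or -5.02 after correction, and -7.07 at chr11:10000001-15000000, or -4.87.

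**Figure D3:**
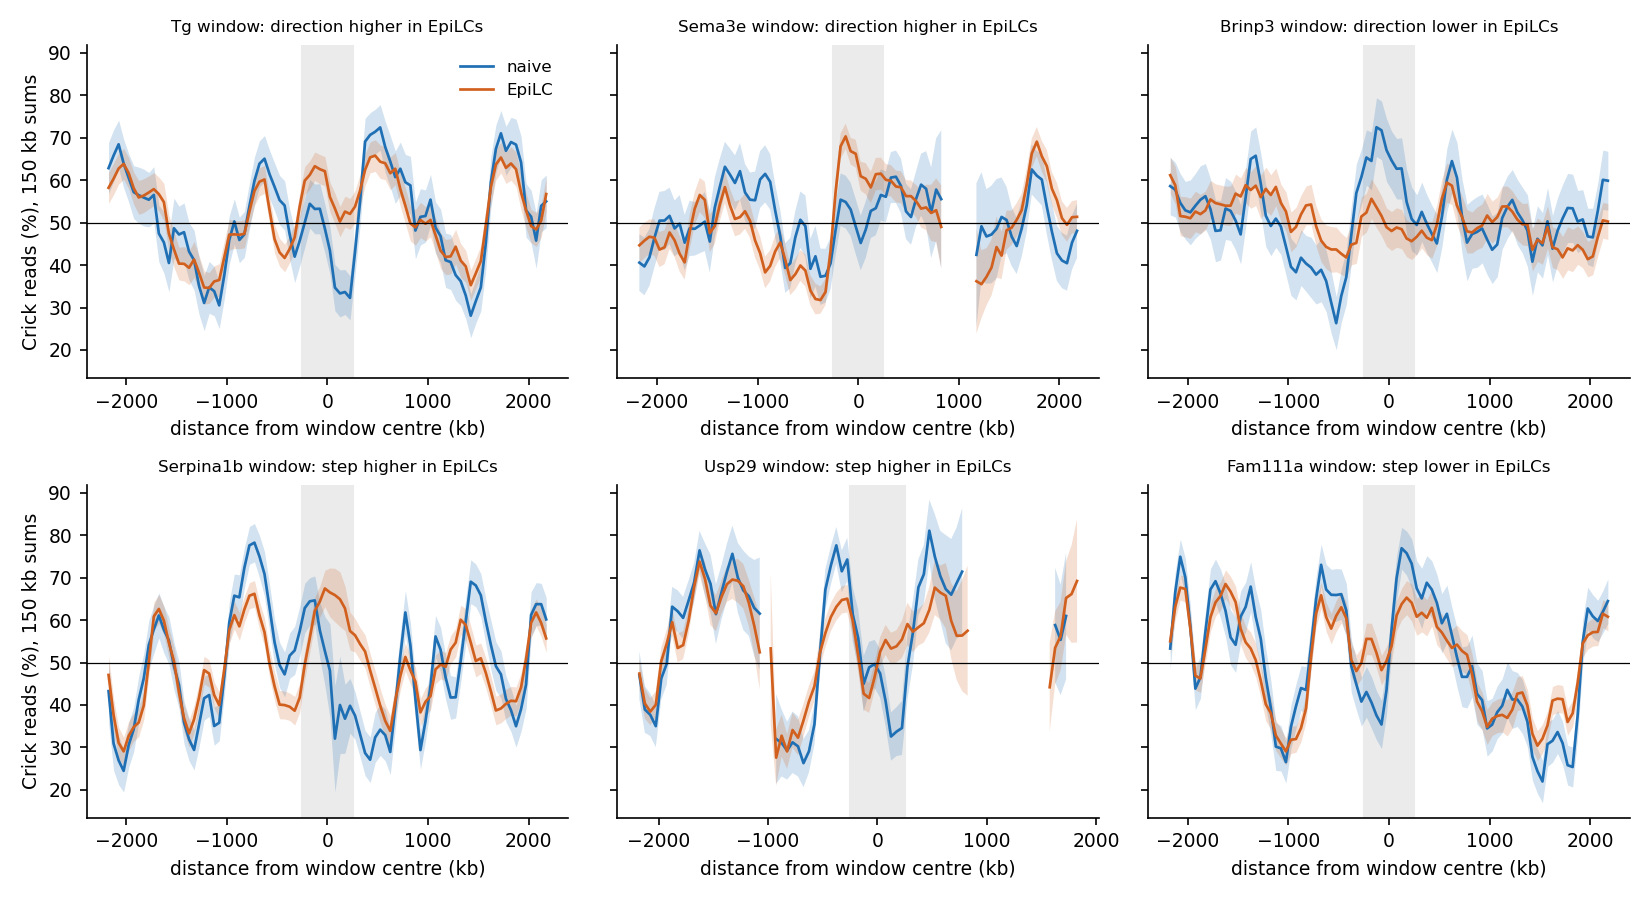
Crick percentage in sums of 150 kb (y axis) by distance from the centre of 6 named 500 kb windows (x axis, kb) in naive cells (blue) and EpiLCs (orange), with 95% counting intervals shaded and the window in grey. In the Tg window the naive right side is at 35.0% and the EpiLC one at 53.2%, and in the Serpina1b window at 36.1% and 63.6%, so the EpiLC value of that side is the higher one in both.

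The mean step changed by under 1 point in gene-poor and gene-rich windows. By quartile of protein-coding gene number, the mean step of 500 kb windows was -4.27 points in naive cells and -3.53 in EpiLCs in the lowest quartile, and 3.12 and 2.43 in the highest. EpiLC minus naive was 0.743 points (0.493 to 0.992) in the lowest and -0.690 (-0.899 to -0.481) in the highest. Once corrected for T minus A these were 0.056 (-0.195 to 0.307) and -0.314 (-0.525 to -0.103). By GC content, EpiLC minus naive was 0.278 points (0.015 to 0.541) in the lowest quartile and -0.436 (-0.632 to -0.240) in the highest. After the correction these were -0.043 (-0.308 to 0.221) and -0.311 (-0.509 to -0.114). With the window grid shifted, the highest GC quartile had -0.087 ± 0.196. With EpiLC reads thinned to the naive total, the lowest had 0.288 ± 0.316, so both intervals then held 0. The windows called for direction numbered 19, 20, 17 and 4 from the lowest to the highest GC quartile, of about equal size, and 9, 8, 7 and 5 in corrected reads.

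At the genes that define the states, the strand step over the naive pluripotency genes together was lower in EpiLCs. Over the genes of later lineages together it was higher, though at most of them singly no difference beyond counting error was measured. The naive program holds embryonic stem cells in the ground state and is switched off on exit, when formative factors such as Fgf5 and Otx2 are switched on. The strand step was taken over 250 kb on each side of the transcription start site (TSS), as the Crick percentage of the right side minus that of the left, which has the same sign for genes of either strand. Over all protein-coding genes, 21624 with reads, the step was 5.66 points in naive cells and 4.603 in EpiLCs, a difference of -1.06, or -0.32 after correction. No interval is given for it, since the sides of neighbouring genes overlap and the same read is summed more than once. Over the 14 naive pluripotency genes summed it was 16.5 points in naive cells (14.9 to 18.1) and 7.29 in EpiLCs (6.26 to 8.32), a difference of -9.21 (-11.1 to -7.32). The step fell at 11 of these 14 genes and rose at 1, where it fell at 18.3% and rose at 10.3% of 20968 protein-coding genes with at least 100 reads on each side. Their median difference was -10.4 points, and that over all genes was -1.03. In T minus A corrected reads the list had 14.1 and 6.34 points, and the step fell at 7 of the 14 genes and rose at 1, beside 12.3% and 9.69% of all protein-coding genes. Nanog and Dppa3 lie within 500 kb of each other and share reads, as do Tbx3 and Tbx5 of the later lineage list, which are 162 kb apart.

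The largest fall was at Nr0b1, which encodes the nuclear receptor DAX1 (ENSMUSG00000025056, chrX:86191764-86195947), with a step of 20.8 points in naive cells (10.8 to 30.3) and -3.20 in EpiLCs (-9.85 to 3.46). Tfcp2l1, a transcription factor of the naive network (ENSMUSG00000026380, chr1:118627945-118685168), had 10.5 points in naive cells (4.74 to 16.2) and -8.12 in EpiLCs (-11.7 to -4.49). The sign of the broad step at Tfcp2l1 thus changed. With 25 kb on each side, where reads are few and no interval was computed for single genes, the step was 39.5 points in naive cells and 21.3 in EpiLCs at Tfcp2l1, and 55.2 and 0.77 at Nr0b1. At this width it was lower in EpiLCs at 9 of the 14 naive pluripotency genes, beside 56.35% of all protein-coding genes. Klf4 had 4.39 points in naive cells and 14.0 in EpiLCs there. The fixed 500 kb window that holds Tfcp2l1, which is not centred on the TSS, was called termination in naive cells and neither class in EpiLCs. Tcl1, a co-activator of AKT kinases, likewise had 7.46 points in naive cells (1.57 to 13.3) and -10.6 in EpiLCs (-14.4 to -6.61). Prdm14, a repressor of differentiation genes, had 25.3 points in naive cells (19.6 to 30.8) and 8.39 in EpiLCs (4.74 to 12.0). Zfp42, the classical naive marker Rex1, had 40.8 points in naive cells (34.4 to 46.8) and 24.5 in EpiLCs (19.8 to 29.0), so that a strong zone remained. Klf5 fell from 33.3 to 20.2 points and Klf4, another Kruppel-like factor, from 18.6 to 5.95. Smaller falls were measured at Nr5a2 (-8.14), Nanog (-7.18), Dppa3 (-7.12) and Tbx3 (-6.55). After correction these were -6.68, -5.09, -5.77 and -3.36, each with an interval that held 0. Esrrb, an orphan nuclear receptor, went the other way, from -10.3 points in naive cells to -2.78 in EpiLCs. Fgf4 and Klf2 had differences of 1.37 (-5.30 to 8.03) and -0.41 (-7.53 to 6.71).

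The formative genes did not move together. Over the 14 genes summed the step was 13.1 points in naive cells (11.5 to 14.6) and 14.6 in EpiLCs (13.6 to 15.5), a difference of 1.496 (-0.35 to 3.34). After correction for T minus A the difference was 2.86 (0.9997 to 4.72). The step rose at 4 of 14 genes and fell at 2, beside 10.3% and 18.3% of all protein-coding genes. In corrected reads it rose at 6 and fell at 2, beside 9.69% and 12.3%. Lef1, the nuclear partner of beta-catenin (ENSMUSG00000027985, chr3:131110471-131224356), had 6.08 points in naive cells (0.39 to 11.7) and 19.6 in EpiLCs (16.0 to 23.0). Fgf5, the growth factor that marks the epiblast after implantation, had 17.1 points in naive cells (10.3 to 23.6) and 28.0 in EpiLCs (24.4 to 31.6). Sox3, a SoxB1 transcription factor, had 13.5 and 25.1 points, and Pou3f1, the POU factor Oct6, 4.77 and 14.3. Foxd3, a forkhead repressor, fell from 40.6 points (34.6 to 46.2) to 23.7 (19.96 to 27.3), and the zinc finger factor Zic2 from 25.6 to 16.8. Otx2, Dnmt3a and Dnmt3b had differences of -3.15 (-9.59 to 3.29), 0.65 (-5.93 to 7.22) and -2.79 (-8.79 to 3.22).

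Genes of later lineages, such as mesoderm, endoderm and neural regulators, had a higher summed step in EpiLCs, to which single genes added unequally. Over the 14 genes summed the step was 1.98 points in naive cells (0.34 to 3.62) and 7.88 in EpiLCs (6.87 to 8.89), a difference of 5.90 (3.97 to 7.83), or 6.13 after the T minus A correction. The step rose at 5 of 14 genes and fell at 0, beside the same 10.3% and 18.3% of all genes, and the interval of the other 9 held 0. The median difference was 3.57 points. In corrected reads the step rose at 6 and fell at 0, beside 9.69% and 12.3% of all genes, with a median difference of 4.34 points. Neurog2, a proneural bHLH factor (ENSMUSG00000027967, chr3:127633135-127635631), had -4.99 points in naive cells (-10.7 to 0.74) and 11.3 in EpiLCs (7.93 to 14.6). Myod1, the myogenic bHLH factor, rose from -22.6 to -12.2 points and thus lay in a termination slope in both states. Gata4 and Tbx5 rose by 9.22 and 9.24 points, the latter partly in the reads in which Tbx3 fell. Eomes, Pax6, Foxa2 and T, regulators of mesoderm, endoderm and neural fate, had strong steps in both states, from 17.4 to 26.1 points in naive cells and from 19.2 to 25.8 in EpiLCs. Over the 8 genes shared by both pluripotent states summed, the step was 15.5 points in naive cells and 12.4 in EpiLCs. The difference was -3.15 (-5.64 to -0.66), or -1.09 (-3.60 to 1.41) after correction. Among the 8 the step fell at 2 and rose at 1, beside 18.3% and 10.3% of all genes. Utf1 rose by 8.05 points, L1td1 fell by 10.5, and Pou5f1 and Sox2 had differences of -1.87 (-9.27 to 5.54) and -4.35 (-10.9 to 2.19). Over 16 giant genes, which are long and often fragile, the difference was -1.81 (-3.90 to 0.29), with a fall at Immp2l and Auts2 and a rise at Il1rapl1, counts near the shares of all genes. After correction Auts2 had a difference of -2.84 points, with an interval that held 0.

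By distance from the TSS, the gap between the states varied along each profile. In the 50 kb to the right of the TSS the naive genes had 59.1% Crick reads in naive cells (56.7 to 61.4) and 55.5% in EpiLCs (53.9 to 57.1), and in the 50 kb from 100 to 150 kb they had 65.7% (63.1 to 68.1) and 57.5% (55.9 to 59.1), the widest gap within 500 kb on that side. At 150 to 200 kb the gap was narrow again, with 60.2% (57.6 to 62.7) and 58.4% (56.8 to 59.9). The later lineage genes had 60.4% (57.8 to 62.8) and 60.3% (58.7 to 61.8) in the first 50 kb. At 100 to 150 kb they had 49.0% (46.5 to 51.6) and 53.9% (52.3 to 55.5). With 25 kb on each side the summed difference was -7.13 points (-12.9 to -1.35) for naive genes and 0.79 (-5.12 to 6.70) for later lineage genes. In corrected reads that of naive genes was -4.68 (-10.5 to 1.13), with an interval that held 0.

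**Figure D4:**
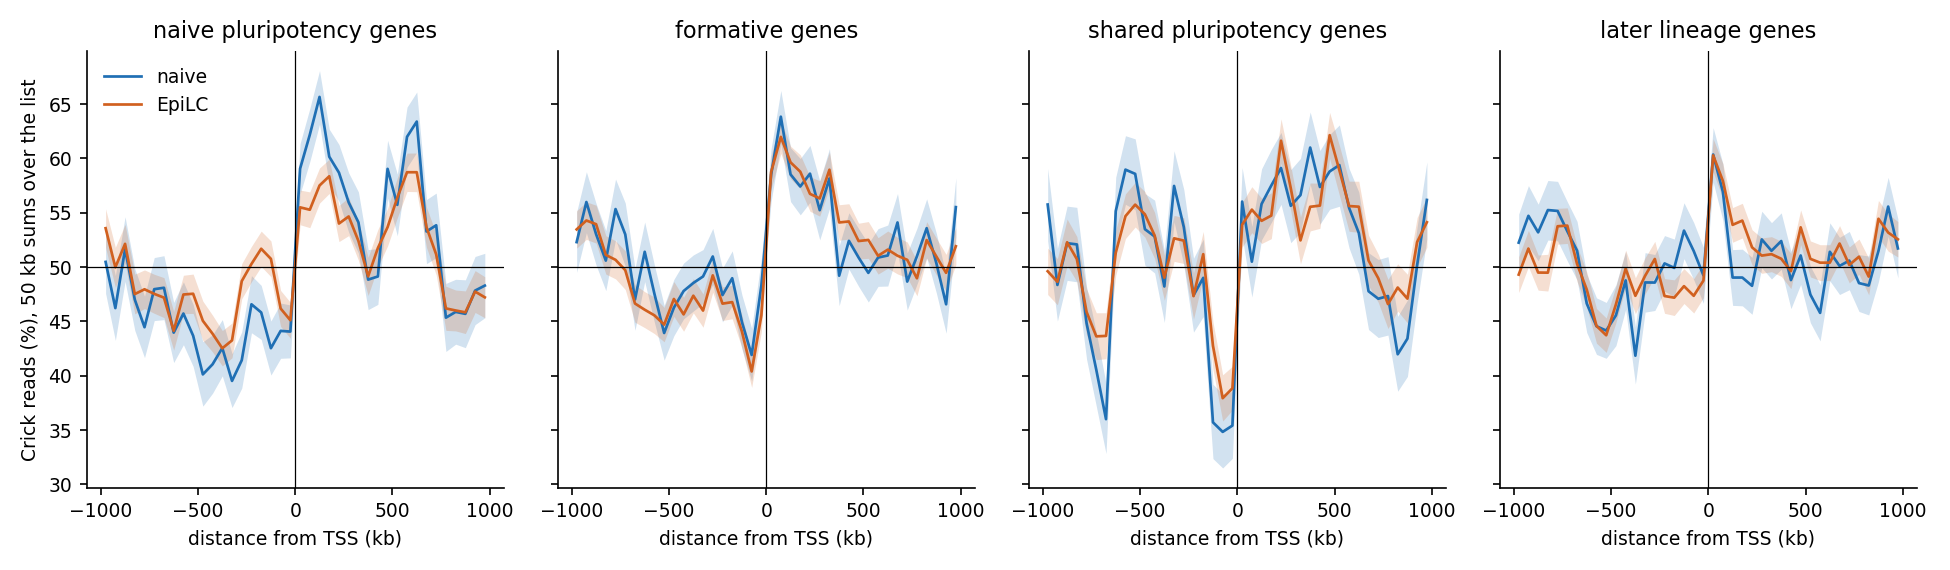
Crick percentage in sums of 50 kb over the genes of a list (y axis) by distance from the TSS along the chromosome (x axis, kb), in naive cells (blue) and EpiLCs (orange), with 95% counting intervals shaded. The climb at the TSS of naive pluripotency genes reaches 65.7% in naive cells and 57.5% in EpiLCs at 100 to 150 kb, whereas formative genes overlap at most distances.

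**Figure D5:**
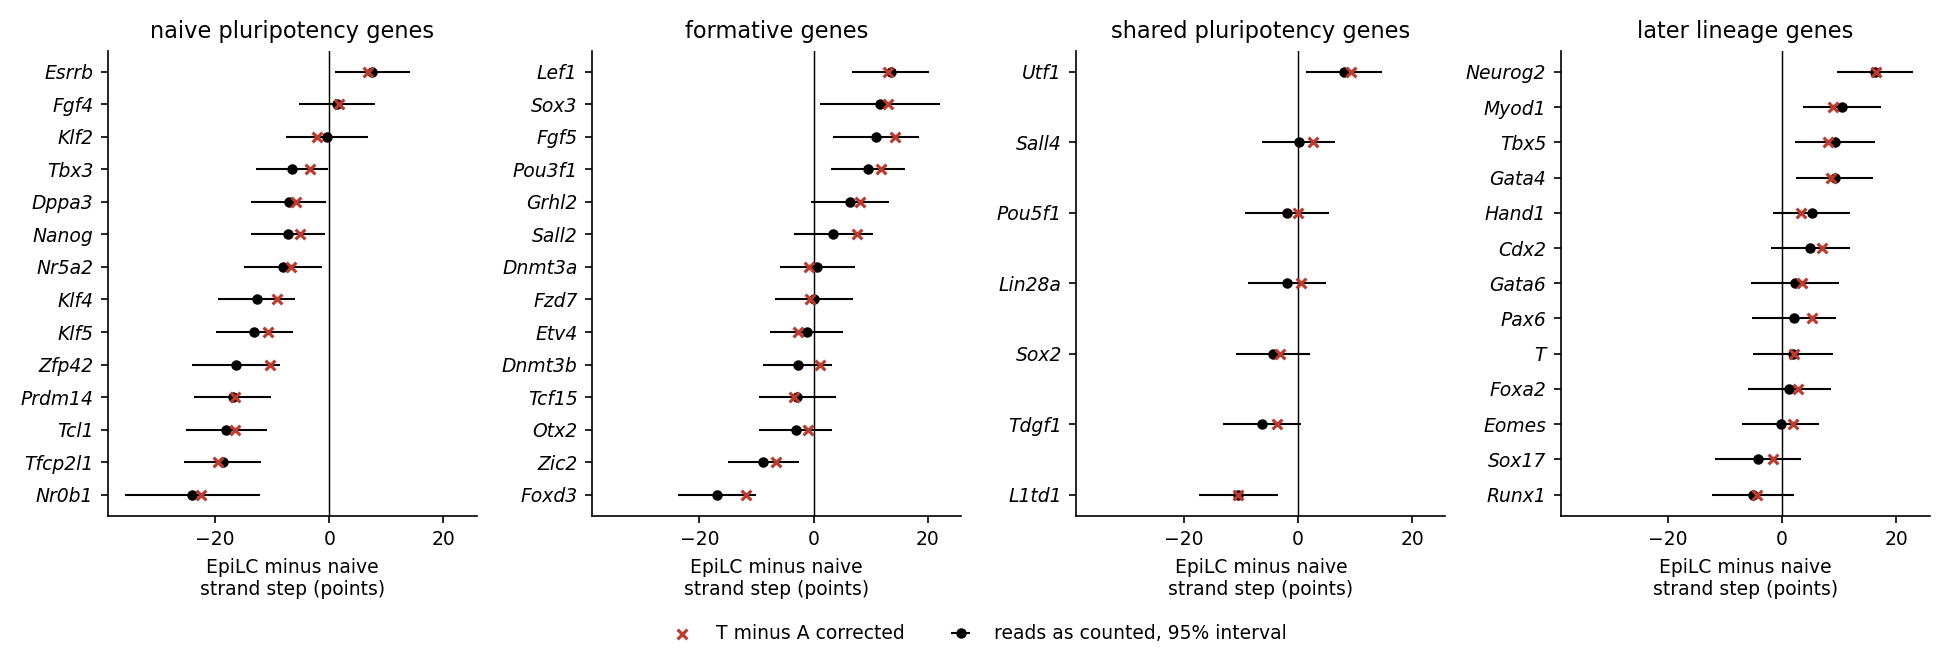
EpiLC minus naive strand step (x axis, percentage points, 250 kb on each side of the TSS) for genes of 4 lists, as counted with its 95% counting interval (black) and after the T minus A correction (red crosses). Naive pluripotency genes lie mostly below 0, with the interval below 0 at 11 of 14 in reads as counted, and later lineage genes mostly above it.

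Promoters are shown because the step is centred on or near them, for the 2 largest falls of the naive pluripotency list and the largest rise of the formative and of the later lineage list. The step was centred on the GENCODE TSS, which for Lef1 lies 148 bases from the RefSeq TSS and outside the printed stretch. Each holds the 250 bases before and 50 after the RefSeq TSS in GRCm38.p6, on the plus strand, with the dinucleotide CG, which reads the same on both strands, in capitals. They lie at chrX:86191525-86191824, chr1:118627695-118627994, chr3:131110073-131110372 and chr3:127632886-127633185.
Nr0b1: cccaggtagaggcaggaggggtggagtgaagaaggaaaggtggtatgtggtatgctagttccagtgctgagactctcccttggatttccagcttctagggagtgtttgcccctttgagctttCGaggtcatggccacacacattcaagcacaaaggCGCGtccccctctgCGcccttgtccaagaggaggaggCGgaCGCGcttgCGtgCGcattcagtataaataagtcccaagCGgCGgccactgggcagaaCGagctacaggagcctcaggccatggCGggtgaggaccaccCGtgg
Tfcp2l1: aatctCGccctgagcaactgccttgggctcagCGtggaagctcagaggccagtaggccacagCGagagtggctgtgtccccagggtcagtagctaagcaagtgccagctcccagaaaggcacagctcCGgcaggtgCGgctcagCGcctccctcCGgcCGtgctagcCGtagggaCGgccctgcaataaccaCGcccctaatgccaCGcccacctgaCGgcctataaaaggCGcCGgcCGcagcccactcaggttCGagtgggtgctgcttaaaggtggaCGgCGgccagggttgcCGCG
Lef1: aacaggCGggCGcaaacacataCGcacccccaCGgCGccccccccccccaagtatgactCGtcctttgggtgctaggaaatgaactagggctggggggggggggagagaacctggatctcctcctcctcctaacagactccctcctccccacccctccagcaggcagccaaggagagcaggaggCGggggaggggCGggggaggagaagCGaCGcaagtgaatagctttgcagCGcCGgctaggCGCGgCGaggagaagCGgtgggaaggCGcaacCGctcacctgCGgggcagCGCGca
Neurog2: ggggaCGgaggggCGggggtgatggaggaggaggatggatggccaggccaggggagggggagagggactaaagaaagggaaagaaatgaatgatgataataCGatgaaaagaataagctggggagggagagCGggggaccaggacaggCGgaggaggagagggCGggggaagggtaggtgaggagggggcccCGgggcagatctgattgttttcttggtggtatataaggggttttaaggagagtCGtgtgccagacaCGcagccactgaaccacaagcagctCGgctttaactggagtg
The Nr0b1 promoter held 14 CG, and 36.3% of 32851 promoters of this length held at least as many. Those of Tfcp2l1 and Lef1 held 21 each, reached by 24.8% of promoters, and that of Neurog2 held 10, reached by 43.5%. The median promoter held 7. The promoters of Tfcp2l1, where the step fell, and of Lef1, where it rose, thus had the same number of CG.

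The same change of state was measured in libraries of the dKO and dCD lines, which share no reads with the control. Of the called windows with enough reads in all 6 libraries, 30 were higher in control EpiLCs, and EpiLC minus naive was above 0 at 25 of them in dKO and at 27 in dCD, with medians of 5.39 and 8.53 points. Of 27 windows lower in control EpiLCs, 25 were below 0 in dKO and 25 in dCD. Over all 4943 windows 50.4% were above 0 in dKO and 49.8% in dCD. The difference between states in the control had a Pearson r of 0.50 with that in dKO and 0.554 with that in dCD over these windows, and 0.748 and 0.731 with counting noise removed, or 0.720 and 0.668 in corrected reads. The median in these lines was smaller than the 11.6 points of the control, whose reads chose the windows. In every line the spread over windows was lower in EpiLCs, so windows far from 50% in naive cells tend toward 50% in all of them. How much of the shared direction and of r this makes up was not tested. Around Tg the difference was 7.49 points in dKO and 15.7 in dCD. The gene-less window of chromosome X called higher in the control had -2.05 points in dKO and 1.963 in dCD.

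At naive pluripotency genes EpiLC minus naive was -5.40 points (-7.32 to -3.49) in dKO and -14.7 (-16.6 to -12.7) in dCD. Values were lower at 12 and 13 of 14 genes, beside 12490 of 21602 protein-coding genes in dKO and 12354 of 21587 in dCD. Over all protein-coding genes it was -1.11 points in dKO and -1.56 in dCD, or -0.62 and -0.94 after correction. At later lineage genes it was 0.79 points (-1.18 to 2.76) in dKO and 4.05 (2.001 to 6.09) in dCD, so a higher step there was not detectable in the dKO line. Whether the lines differ in these changes was not tested. The ratio of EpiLC to naive SD at 500 kb was 0.804 in dKO and 0.740 in dCD, beside 0.801 in the control over the same windows. After correction these were 0.836, 0.774 and 0.904.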

How the data were processed

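OK-seq of mouse cells was aligned to mm10 by the authors, who assigned reads to the Watson and Crick strands. The submitters' processing notes name FastQC, Trim Galore, Bowtie2 and Picard. The authors deposited 1 file per condition holding a strand-wise read density, in reads per bp, over 2725511 bins of 1 kb, with the 2 replicates summed and library sizes not equalised. All deposited values were multiples of 0.001 within 2.3e-13, so a factor of 1000 gave whole reads. Positions were read as bin ends, since 0 reads then fell in bins made of N, against 3139 as bin starts. GRCm38 chromosome lengths matched for 21 chromosomes.

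Of the autosomes and chromosome X, 126 bins above 10 times the median were dropped. Windows started at base 1, with at least 20, 200 and 2000 reads in each library at 50 kb, 500 kb and 5 Mb, and steps needed at least 100 reads on each side at 500 kb and 1000 at 5 Mb. Depth was 4409068 (naive) and 11407678 reads (EpiLC). Counting noise was removed by subtracting the binomial variance. For the T minus A part, Crick reads above the share of neighbouring bins, 10 on each side without the 2 nearest, were fitted on T minus A content and the fitted part subtracted. Genes were those of GENCODE M21 and promoters those of RefSeq (GRCm38.p6). Windows were named by the 8 largest rises and falls of direction and the 6 largest gains and losses of step, each by its longest protein-coding gene. Some of these windows and some genes of the lists are not reported here. Members and gene lists were chosen with earlier results of these data known. Alternatives were the T minus A part, bins left out, thinning to the naive depth, a shifted grid, autosomes only, odd or even bins, a doubled minimum, other call sizes and EpiLC values scaled to the naive spread. The procedure was tested on simulated strands. Python 3.11.15, numpy 2.4.6, scipy 1.17.1, pandas 2.3.3 and matplotlib 3.10.9 were used.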

Additional observations from a re-analysis of the deposited data

How the results depend on the processing

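No paired analysis was possible because the replicates are summed in the deposited files, and leaving out a replicate could not be run for the same reason. After the T minus A correction, the SD ratio was 0.865 at 50 kb, 0.905 at 500 kb and 0.977 at 5 Mb, the correlation between states without counting noise 0.866 at 50 kb and 0.892 at 500 kb, and that of the state difference with dCD 0.668. The quartile differences were then -0.314 and 0.056 for gene number, and that of the lowest GC quartile reversed to -0.043. Termination windows numbered 628 (naive) and 431 (EpiLC), windows called for direction 303 lower at 50 kb and 16 higher and 13 lower at 500 kb, and those called for step at 5 Mb 0 higher and 1 lower.

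With EpiLC reads thinned to the naive total, windows called numbered 899 higher and 834 lower at 50 kb, 50 higher at 500 kb, 9 and 5 for the 5 Mb step, and 32 had turned. Odd-numbered bins alone gave 1350, 1281, 64, 54, 13 and 5 in the order 50 kb higher and lower, 500 kb higher and lower, 5 Mb step higher and lower, and 21 turned, with correlations of 0.911 at 50 kb and, of the state difference, 0.770 with dCD and 0.788 with dKO. Even-numbered bins alone gave 1329 and 1178 at 50 kb, 68 higher at 500 kb, 7 lower for the 5 Mb step, 26 turned and a correlation of 0.913 at 50 kb. At giant genes these bins gave -3.96 and 0.37 points. A shifted grid gave an SD ratio of 0.809 at 500 kb, 4 windows lower for the 5 Mb step and -0.087 points in the highest GC quartile. With no bins left out the 5 Mb ratio was 0.773 and 1 window was called higher at 5 Mb. Scaled to the naive spread, 7 and 4 windows were called for the 5 Mb step.

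With the size of a call decreased by 50%, calls numbered 3774 higher and 3696 lower at 50 kb, 450 and 402 at 500 kb, 3 and 1 at 5 Mb, 565 and 597 for the 500 kb step, 49 and 42 for the 5 Mb step, and in EpiLCs 1367 initiation and 1558 termination windows. With it doubled they numbered 3 and 1, 0 and 0, 14 and 23 for the 500 kb step, 0 and 0 for the 5 Mb step, 329 and 152 initiation windows in naive cells and EpiLCs and 183 and 45 termination windows. With 25 kb on each side of the TSS the differences were -7.13 (naive list), -1.33 (formative), -6.62 (shared), 0.793 (later lineage) and 2.52 points (giant genes). Autosomes alone and a doubled minimum moved no result beyond its counting interval or by 1.5 times. Naive depth limits single 50 kb windows, and the summed replicates leave the biological spread unknown.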

Other observations

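Read density by chromosome, a measure other than fork direction, was close between the states. EpiLC over naive density lay between 0.979 and 1.026 on the 19 autosomes and was 1.061 (1.054 to 1.068) on chromosome X. Relative to the autosomes, per bin with any read, density on X was 0.424 in naive and 0.451 in EpiLC control cells, 0.426 and 0.436 in dKO, and 0.421 and 0.448 in dCD. The X was thus slightly denser in the EpiLC library of each line, and with 1 file per state the spread of this ratio between replicates is unknown.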
